A study of Mus musculus with 12 samples.

Results

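The genes described here serve the handling of sodium chloride, calcium and magnesium, as transporters, binding proteins or regulators. They act in the distal convoluted tubule and the connecting tubule, the segments of the nephron between the thick ascending limb and the collecting duct. The list named 10 genes: Slc12a3, Calb1, Kl, Trpv5, Trpm6, Pvalb, Wnk1, Wnk4, Slc8a1 and Atp2b1. Members were taken by gene symbol, and every probe set (the group of short probes that reports a transcript) annotated to 1 symbol alone was used. On that rule 9 of the 10 genes had a probe set, with 22 probe sets between them, out of 18194 genes and 34945 such probe sets in all. Trpv5, the apical calcium channel of these segments, had no probe set of its own under this rule and was not analysed here.

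The samples were total RNA from mouse kidney at 3 stages, each from cortex and from medulla. Kidney tissue was the reference stage. Renal progenitor cells had been isolated from cortex or medulla and grown on a layer of fibroblast feeder cells. Organoids had been made from such cells by differentiation in 3-dimensional Matrigel, a basement membrane gel. The labels name no strain, age, genotype or drug for any group. Each of the 6 groups had 2 arrays, which the labels call biological replicates, so p-values measure the spread between these arrays. The labels do not say whether a progenitor or organoid sample came from 1 clone or several.

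In the distal convoluted tubule the cotransporter Slc12a3 brings sodium chloride in from the lumen, and the kinases Wnk1 and Wnk4 control its phosphorylation through the kinases SPAK (Stk39) and OSR1 (Oxsr1). Calcium enters through Trpv5, is buffered and carried by calbindin-D28K (Calb1), and leaves across the basolateral membrane through the exchanger Slc8a1 and the pump Atp2b1. Magnesium enters through Trpm6. Parvalbumin (Pvalb) is a calcium-binding protein of the early distal convoluted tubule, and klotho (Kl) is the co-receptor through which the receptors for FGF23 bind that hormone.

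The upstream sequences of 4 members are printed to set side by side 2 genes that fell together from tissue to progenitor cells, Slc12a3 and Kl, and the 2 genes with the smallest differences that passed the test there, Wnk1 and Atp2b1. These differences are those of the brightest probe set of each gene, and the Wnk1 probe sets disagreed in direction. They are RefSeq sequences of GRCm38.p6, 5′ to 3′ on the gene's strand. Each begins 250 bases before a RefSeq transcript start and is cut where the gene's annotated extent begins. Capitals mark CG dinucleotides. The stretches are chr8:94328958-94329108 on the plus strand for Slc12a3, chr5:150952357-150952606 on the plus strand for Kl, chr6:120038696-120038905 on the minus strand for Wnk1 and chr10:98914392-98914629 on the plus strand for Atp2b1.
Slc12a3: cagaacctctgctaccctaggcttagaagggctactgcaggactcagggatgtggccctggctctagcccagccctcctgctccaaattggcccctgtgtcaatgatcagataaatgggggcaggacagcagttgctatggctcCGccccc
Kl: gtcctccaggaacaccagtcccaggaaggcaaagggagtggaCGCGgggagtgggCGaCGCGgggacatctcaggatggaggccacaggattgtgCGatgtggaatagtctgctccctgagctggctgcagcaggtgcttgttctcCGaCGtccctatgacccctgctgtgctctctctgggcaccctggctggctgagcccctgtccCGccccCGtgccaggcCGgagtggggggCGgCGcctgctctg
Wnk1: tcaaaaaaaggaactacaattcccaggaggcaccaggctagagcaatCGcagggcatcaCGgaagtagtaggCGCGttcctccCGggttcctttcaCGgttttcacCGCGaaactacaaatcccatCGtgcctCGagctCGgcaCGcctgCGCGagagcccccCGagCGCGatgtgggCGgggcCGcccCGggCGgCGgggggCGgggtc
Atp2b1: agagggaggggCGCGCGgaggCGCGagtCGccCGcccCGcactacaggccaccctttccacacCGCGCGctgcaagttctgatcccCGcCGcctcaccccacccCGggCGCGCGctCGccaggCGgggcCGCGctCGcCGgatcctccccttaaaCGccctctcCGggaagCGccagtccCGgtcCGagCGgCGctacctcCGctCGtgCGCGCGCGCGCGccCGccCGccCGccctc

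CG content differed among these upstream windows, whose genes were chosen by their differences from tissue to progenitor cells. Over the full 250 bases, the observed count of CG over that expected from base composition was 0.134 for Slc12a3, 0.469 for Kl, 1.02 for Wnk1 and 1.17 for Atp2b1, against a median of 0.373 over 32851 promoters. Of all promoters, 20% had a lower ratio than Slc12a3, 57.4% a lower ratio than Kl, 95% a lower ratio than Wnk1 and 99.1% a lower ratio than Atp2b1. Other members that fell had higher ratios than Kl, at 0.53 for Slc8a1 and 0.571 for Wnk4. The Pvalb windows had 0.198 and 0.72. Trpm6, which did not pass the test, had 0.383, and another Atp2b1 window had 1.01. Whether the ratio goes with the difference was not tested. The letters TATAAA, searched on both strands, were found in the 250 bases of Slc12a3, starting 32 bases before the transcript start and past the stretch printed, and in those of Trpv5. No other member's window held them, and 12.4% of all promoters did. Of the 10 genes, 9 had a window in the RefSeq table; Calb1 is named only. These matches are descriptions of letters and say nothing of binding.

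Before the results, 3 properties of the arrays bear on them. The log2 signal of the poly-A transcripts spiked in ahead of labelling had a median of 7.96 to 8.83 on tissue arrays, 7.03 to 7.37 on progenitor arrays and 1.21 to 1.88 on organoid arrays. The log2 signal of the 3′ minus the 5′ Gapdh control was -0.233 to 0.183 on tissue, -0.405 to -0.298 on progenitor and 0.867 to 1.67 on organoid arrays. The same difference for beta-actin was highest on tissue arrays, at 0.938 to 1.63 on tissue, 0.163 to 0.187 on progenitor and -0.00155 to 0.149 on organoid arrays. Stage and these control readings cannot be told apart. Fibroblast markers also differed by stage: the summed signal of 10 genes was 4196 to 8358 on tissue arrays, 13098 to 18243 on progenitor arrays, 2149 and 2713 on cortex organoid arrays and 8883 and 9108 on medulla organoid arrays. The 10 genes did not all move alike. From tissue to progenitor cells 7 were called higher and 2 lower, against 36.8% and 35.9% of all genes. From there to organoids 1 was called higher and 8 lower, against 28.1% and 44.3% of all genes. The part of the fibroblast markers in the results was not tested. In such bulk RNA, fewer cells of a type and less RNA per cell cannot be told apart.

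Tissue arrays of both regions carried the distal markers. Of 8 distal convoluted and connecting tubule genes listed to check the label (4 of them members), 7 had a probe set, and all 7 lay above the array's median on each tissue array. On each progenitor array 2 of the 7 did, and on each organoid array 5 of the 7 did. The summed signal of the 7 was 94925 and 110372 in cortex tissue and 68654 and 101751 in medulla tissue. These ranges overlap, so the check does not tell the region labels apart.

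Across the members, the dominant difference was between tissue and the cultured stages. From tissue to progenitor cells 7 of 9 genes fell, 1 rose and 1 did not pass the test, with a median log2 difference of -4.11 against 0.03 over all genes. Of the 13037 genes tested, 35.9% were called lower and 36.8% higher in this comparison, so differences of either direction were common. A gene was tested if both arrays of any 1 group lay above their medians. Slc12a3, Kl, Slc8a1 and Pvalb did so in tissue alone, which favours a fall to both cultured stages. The member counts against tissue are therefore descriptions. The fall was not particular to the members: all tested markers of the proximal tubule (7 of 7, median -7.28), thick ascending limb (5 of 5, median -6.72), principal cell (6 of 6, median -5.43) and intercalated cell (4 of 4, median -5.65) fell too. From progenitor cells to organoids 2 of 9 rose, 3 fell and 4 did not pass, with a median of -0.07 against -0.29 over all genes. There, 28.1% of all genes were called higher and 44.3% lower, so the members' shares lay near those of all genes. With the mean of all probe sets of a gene in place of the brightest, 4 members were called higher and 1 lower in this comparison. From tissue to organoids 8 of 9 were lower, none higher and 1 did not pass, with a median of -5.74 against -0.29 over all genes. The background was 46.6% called lower and 33% called higher. With the mean of all probe sets, 6 were lower and 3 higher (Wnk1 0.52, Atp2b1 0.99 and Trpm6 0.82), since the probe sets of these genes disagreed. These 3 comparisons share arrays and are not independent.

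A call is an adjusted p under 0.05 in limma, fitted to the 6 group means over all 12 arrays and adjusted by Benjamini-Hochberg over all genes tested. Stage differences are the mean of the cortex and the medulla difference, with 4 arrays a side. All differences are on the scale log2(signal + 15.2), which understates the difference of a dim gene. Single values below are the deposited log2 signals, on arrays whose median log2 signal lay between 5.85 and 6.53. Levels of different probe sets are not compared.

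**Figure D1:**
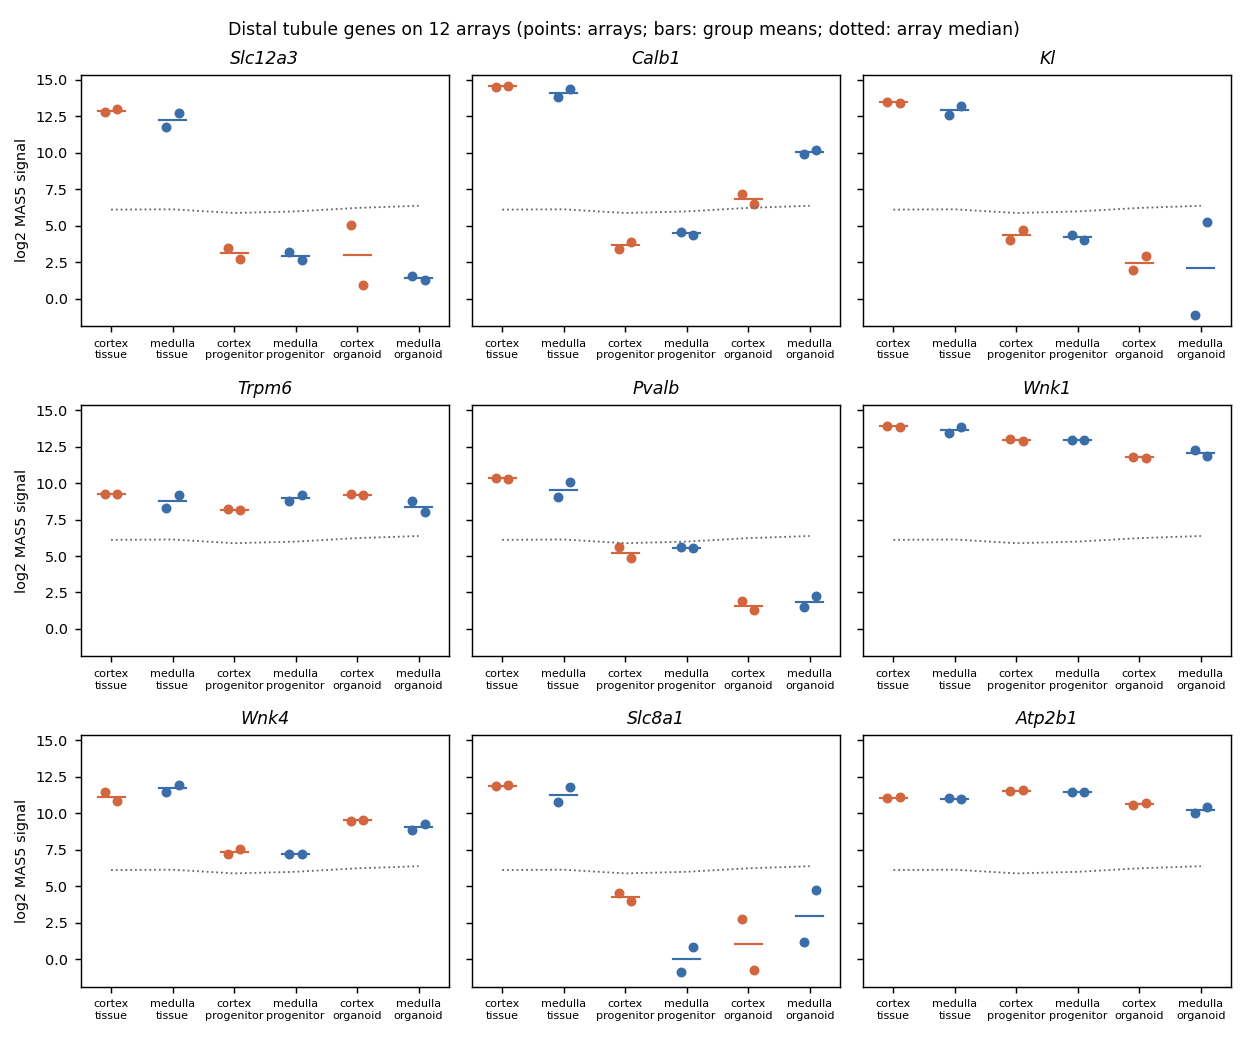
Deposited log2 signal (vertical axis) of the probe set used for each of the 9 measured genes, by group (horizontal axis), with 1 point an array, orange for cortex and blue for medulla, and the mean of the array medians in each group as a dotted line. Slc12a3, Kl, Slc8a1 and Pvalb lie above the array median in tissue and below it in cultured groups, Calb1 returns above it in organoids, and Trpm6, Wnk1 and Atp2b1 stay above it throughout.

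The gene for apical salt entry was high in tissue and dim in both cultured stages. Slc12a3 (chromosome 8, 94329109 to 94366222) is the thiazide-sensitive sodium chloride cotransporter and the defining transporter of the distal convoluted tubule. The log2 signals were 12.78 and 13.01 in cortex tissue, 11.76 and 12.76 in medulla tissue, 3.48 and 2.74 in cortex progenitor cells, 3.21 and 2.66 in medulla progenitor cells, 5.07 and 0.92 in cortex organoids, and 1.58 and 1.27 in medulla organoids. Every tissue array stood above every cultured array, and all 8 cultured values lay below the lowest array median. Slc12a3 fell by 8.03 ± 0.32 (SE) from tissue to progenitor cells, a size that depends on the offset because the cultured signals are dim (limma adjusted p = 5.14e-10). Between progenitor cells and organoids the difference was -0.05 ± 0.32, with a 95% interval of -0.75 to 0.66 (limma adjusted p = 0.903). The organoid minus tissue difference was -8.08 ± 0.32 (limma adjusted p = 4.74e-10). A second Slc12a3 probe set was too dim to be tested.

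Wnk4 (chromosome 11, 101260537 to 101277409), which restrains or activates the cotransporter depending on the state of the pathway, fell and then partly came back. Its arrays read 11.44 and 10.81 in cortex tissue, 11.49 and 11.91 in medulla tissue, 7.20 and 7.52 in cortex progenitor cells, 7.23 and 7.19 in medulla progenitor cells, 9.50 and 9.53 in cortex organoids, and 8.88 and 9.28 in medulla organoids. The 3 stages did not overlap, in the order tissue, organoids, progenitor cells. Wnk4 fell by 4.0 ± 0.17 to progenitor cells (limma adjusted p = 6.7e-10) and rose by 1.92 ± 0.17 to organoids (limma adjusted p = 6.97e-07). The organoid minus tissue difference was -2.09 ± 0.17, or 4.24-fold (limma adjusted p = 2.03e-07). The cotransporter did not pass the test between progenitor cells and organoids while Wnk4 did, but the difference between these changes was not tested.

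Wnk1 (chromosome 6, 119923969 to 120038695) gave opposite answers from its 3 probe sets, so no direction is given for the gene. The kidney makes a full-length Wnk1 and a shorter distal form without the kinase domain, and the annotation used here does not say which form each probe set reads. The brightest, 1433676_at, read 13.93 and 13.85 in cortex tissue, 13.45 and 13.87 in medulla tissue, 13.00 and 12.86 in cortex progenitor cells, 12.94 and 12.93 in medulla progenitor cells, 11.82 and 11.75 in cortex organoids, and 12.29 and 11.83 in medulla organoids. On it, signals fell at each stage without overlap, by 0.84 ± 0.12 from tissue to progenitor cells (limma adjusted p = 3.44e-05) and by 1.01 ± 0.12 from there to organoids (limma adjusted p = 8.75e-06). Probe set 1436746_at read 9.57 and 9.67 in cortex tissue, 9.93 and 9.70 in medulla tissue, 11.07 and 11.15 in cortex progenitor cells, 11.12 and 11.12 in medulla progenitor cells, 10.53 and 10.91 in cortex organoids, and 10.31 and 10.84 in medulla organoids. On this probe set every cultured array was above every tissue array, with a rise of 1.38 ± 0.13 to progenitor cells (limma adjusted p over probe sets = 1.25e-06). The third, 1437888_at, was 1.72 ± 0.30 higher in progenitor cells than in tissue and 2.49 higher in organoids than in tissue. The fall in the counts above is that of the brightest probe set.

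**Figure D2:**
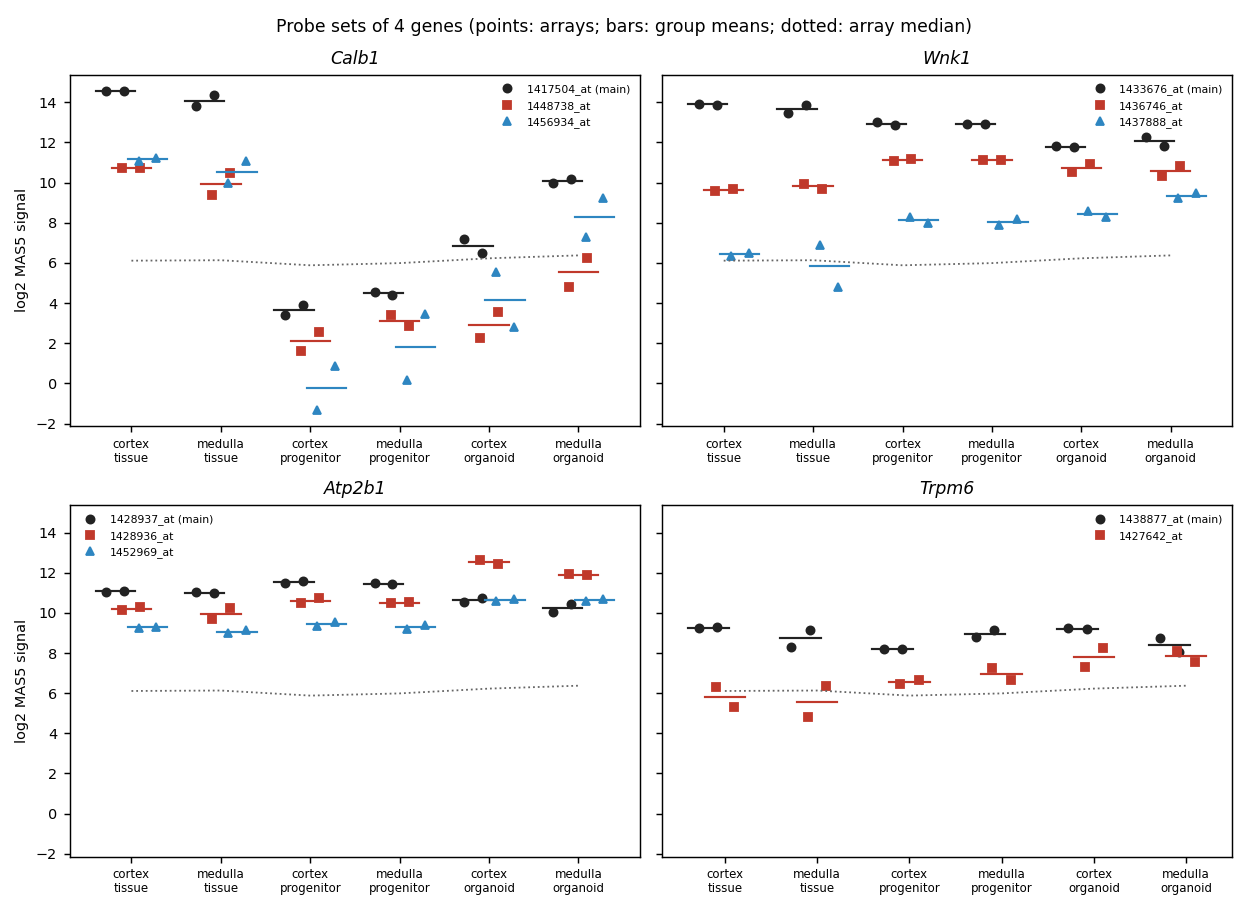
Deposited log2 signal (vertical axis) of every tested probe set of Calb1, Wnk1, Atp2b1 and Trpm6 by group (horizontal axis), with 1 point an array. Colour and marker shape give the probe set, not the region. The Calb1 probe sets share a shape, whereas those of Wnk1 and Atp2b1 move in opposite directions between stages.

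Among the calcium genes on the member list, Calb1 (chromosome 4, 15881264 to 15906709) was the only one that passed the test between cortex and medulla organoids. Calbindin-D28K binds calcium in the cytosol of the late distal convoluted and connecting tubule. Log2 signals of Calb1 were 14.54 and 14.58 in cortex tissue, 13.80 and 14.36 in medulla tissue, 3.40 and 3.91 in cortex progenitor cells, 4.56 and 4.40 in medulla progenitor cells, 7.21 and 6.51 in cortex organoids, and 9.95 and 10.18 in medulla organoids. No 2 groups overlapped: tissue was highest, then medulla organoids, cortex organoids and the progenitor cells. Calb1 fell by 9.31 ± 0.17 to progenitor cells, where its signals lay below the array medians and the size depends on the offset (limma adjusted p = 2.11e-12), and rose by 3.55 ± 0.17 from there to organoids (limma adjusted p = 5.17e-09). The organoid minus tissue difference was -5.76 ± 0.17 (limma adjusted p = 4.3e-11).

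Slc8a1 (chromosome 17, 81373105 to 81738387), the sodium-calcium exchanger NCX1 of the basolateral membrane, was high in tissue and dim in every cultured group on its brightest probe set, 1440201_at. The arrays read 11.89 and 11.90 in cortex tissue, 10.74 and 11.81 in medulla tissue, 4.53 and 3.96 in cortex progenitor cells, -0.91 and 0.87 in medulla progenitor cells, 2.78 and -0.71 in cortex organoids, and 1.17 and 4.76 in medulla organoids. All cultured values were below the array medians, where the order of groups carries no information. Slc8a1 fell by 7.03 ± 0.32 from tissue to progenitor cells (limma adjusted p = 1.32e-09). The organoid minus progenitor difference was -0.07 ± 0.32, with a 95% interval of -0.77 to 0.62 (limma adjusted p = 0.843).

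Atp2b1 (chromosome 10, 98914630 to 99026143), the widely expressed plasma membrane calcium pump PMCA1, kept a signal well above the array medians on all 12 arrays. On the brightest probe set, 1428937_at, the log2 signals were 11.04 and 11.09 in cortex tissue, 11.02 and 10.98 in medulla tissue, 11.50 and 11.58 in cortex progenitor cells, 11.46 and 11.42 in medulla progenitor cells, 10.56 and 10.73 in cortex organoids, and 10.04 and 10.43 in medulla organoids. Progenitor cells were highest, then tissue, then organoids, with no overlap between stages. It was 0.45 ± 0.10 higher in progenitor cells than in tissue (limma adjusted p = 0.00129) and fell by 1.04 ± 0.10 from there to organoids (limma adjusted p = 1.56e-06). The other 2 probe sets had the opposite sign in organoids: 1428936_at was 1.64 ± 0.12 and 1452969_at 1.26 ± 0.11 higher than in progenitor cells. Probe set 1428936_at read 10.12 and 10.30 in cortex tissue, 9.70 and 10.22 in medulla tissue, 10.48 and 10.75 in cortex progenitor cells, 10.49 and 10.52 in medulla progenitor cells, 12.62 and 12.42 in cortex organoids, and 11.94 and 11.87 in medulla organoids. No direction is therefore given for Atp2b1 in organoids.

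Pvalb (chromosome 15, 78191112 to 78206400), the calcium-binding protein of the early segment, fell from tissue to progenitor cells. Its deposited log2 signals were 10.37 and 10.26 in cortex tissue, 9.01 and 10.10 in medulla tissue, 5.60 and 4.85 in cortex progenitor cells, 5.63 and 5.54 in medulla progenitor cells, 1.92 and 1.30 in cortex organoids, and 1.48 and 2.23 in medulla organoids. Stages did not overlap, but both cultured stages lay below the array medians. The fall to progenitor cells was 4.11 ± 0.26 (limma adjusted p = 2.7e-08) and the organoid minus progenitor difference was -1.64 ± 0.26 (limma adjusted p = 0.000114), which passed the test between signals too dim for its size to carry information. Pvalb, Calb1 and Slc8a1 are also expressed by neurons, and Pvalb and Slc8a1 by muscle. Of 5 neuron genes 0 to 2 and of 6 muscle genes 0 to 2 lay above the median on any array. Among the muscle genes, Myh1 read 7.78 to 9.41 on tissue arrays and Acta1 9.13 to 9.31 on progenitor arrays, above the medians. The part of such cells was not tested.

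Kl (chromosome 5, 150952607 to 150993817) encodes klotho, which the distal tubule also sheds as a soluble protein. Log2 signals of Kl were 13.49 and 13.43 in cortex tissue, 12.62 and 13.21 in medulla tissue, 4.05 and 4.72 in cortex progenitor cells, 4.35 and 4.05 in medulla progenitor cells, 1.99 and 2.91 in cortex organoids, and -1.09 and 5.25 in medulla organoids. All tissue arrays were above all cultured arrays, and the medulla organoid pair was far apart at signals below the array medians. Kl fell by 8.06 ± 0.33 from tissue to progenitor cells (limma adjusted p = 5.21e-10). The organoid minus progenitor difference was -0.51 ± 0.33, with a 95% interval of -1.22 to 0.20 (limma adjusted p = 0.177). Without medulla organoid replicate 2 it was -0.95 and passed the test (limma adjusted p = 0.000786). The second Kl probe set, 1451892_at, was 1.19 ± 0.28 higher in organoids than in progenitor cells (limma adjusted p over probe sets = 0.00203) but lay below the array medians on all cultured arrays.

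Trpm6 (chromosome 19, 18730177 to 18892521), the magnesium channel, was the 1 member that passed no stage comparison. Its 12 arrays read 9.23 and 9.27 in cortex tissue, 8.31 and 9.17 in medulla tissue, 8.19 and 8.18 in cortex progenitor cells, 8.78 and 9.15 in medulla progenitor cells, 9.23 and 9.19 in cortex organoids, and 8.75 and 8.03 in medulla organoids. The stages overlapped, and every value lay above its array's median. The progenitor minus tissue difference was -0.40 ± 0.21, with a 95% interval of -0.85 to 0.05 (limma adjusted p = 0.0957), and it passed the test without medulla tissue replicate 1 (-0.61, limma adjusted p = 0.0156) or without either medulla organoid array (limma adjusted p = 0.0419 and 0.0407). The organoid minus tissue difference was -0.19, with a 95% interval of -0.64 to 0.26 (limma adjusted p = 0.412). The second probe set, 1427642_at, was dimmer and passed all 3 stage comparisons: it was 0.87 ± 0.32 higher in progenitor cells than in tissue and 1.82 higher in organoids than in tissue (limma adjusted p over probe sets = 0.0309 and 0.000225). The 2 probe sets thus gave opposite signs for both comparisons with tissue, and no direction is given for the gene.

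**Figure D3:**
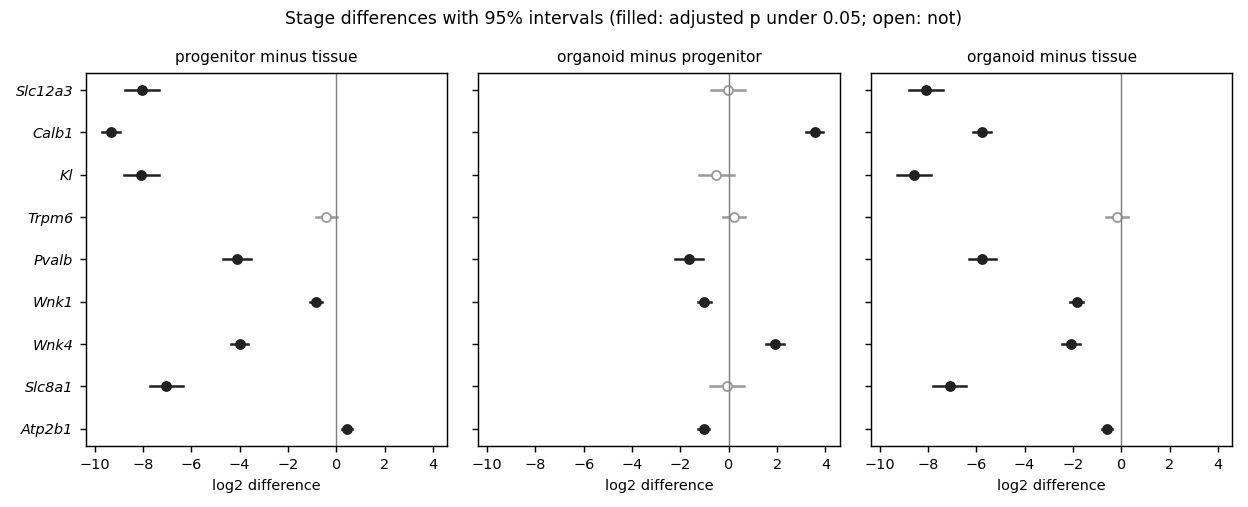
Fitted stage differences in log2(signal + 15.2) (horizontal axis) of the 9 measured genes (vertical axis), 1 panel for each of the 3 stage comparisons, with points for the estimates and bars for 95% intervals. Against tissue most genes lie far below 0 in both cultured stages, with Trpm6 and Atp2b1 nearest 0, while between progenitor cells and organoids Calb1 and Wnk4 lie above 0.

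Over all 20 member probe sets bright enough to be tested, 13 were lower, 5 higher and 2 not called from tissue to progenitor cells. The background over 24203 probe sets was 30.2% lower and 38.8% higher. From progenitor cells to organoids 5 were lower, 9 higher and 6 not called, against 37.6% lower and 34.1% higher over all probe sets. From tissue to organoids 14 were lower, 5 higher and 1 not called, against 38.3% lower and 41.1% higher. All tested probe sets of Slc12a3, Kl, Slc8a1 and Pvalb, and 1448738_at of Calb1, passed the brightness filter through tissue alone. For these the filter favours a fall from tissue, so the counts against tissue are descriptions. Probe sets of 1 gene are not independent measurements of it.

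In tissue, no member passed the test between medulla and cortex, which have 2 arrays each. Over all genes 0.33% were called higher in medulla and 0.00767% lower. At an unadjusted p under 0.05, 1 of the 9 members differed, Wnk4, at 0.57 ± 0.24 higher in medulla (limma adjusted p = 0.483). The signs were nonetheless mostly alike: in 7 members both medulla arrays read below both cortex arrays, as in 21.1% of all genes, and in Wnk4 both read above, as in 24% of all genes. The differences of those 7 ran from -0.74 for Pvalb to -0.06 for Atp2b1. Medulla tissue replicate 1 read lower than replicate 2 in 8 of the 9 members, whereas over all genes replicate 1 was the higher in 49%. Without it the Pvalb difference was -0.21 and that of Slc12a3 -0.14. The summed signal of 7 proximal tubule markers was also lower in medulla, at 112909 and 119377 in cortex tissue and 81457 and 111196 in medulla tissue. None of the 7 passed the test. Aqp1 went the other way, at 13.63 and 13.83 in cortex tissue and 14.00 and 13.90 in medulla tissue. The sum of 5 thick ascending limb markers was higher in medulla, at 56619 and 61014 in cortex tissue and 79981 and 66565 in medulla tissue. None of the 5 passed the test, and the arrays of Cldn16 and Cldn10 overlapped between regions. Their part in the members' differences was not tested.

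Between progenitor cells of the 2 regions no member passed the test either. Over all genes 0.276% were called higher and 0.0384% lower in medulla cells. At an unadjusted p under 0.05, Trpm6 was 0.75 ± 0.29 higher in medulla (95% interval 0.12 to 1.39, limma adjusted p = 0.775). Slc8a1 was -1.07 ± 0.45 (95% interval -2.05 to -0.09, limma adjusted p = 0.884), at signals below the array medians. For none of the 9 did the medulla minus cortex difference in the step from tissue to progenitor cells pass the test, where 0.161% of all genes were called higher and 0.123% lower. Calb1, at 0.91 ± 0.34 (95% interval 0.17 to 1.65, limma adjusted p = 0.528), and Trpm6 were the 2 members at an unadjusted p under 0.05. The step of Trpm6 was -1.03 in cortex and 0.22 in medulla, a difference of 1.25 ± 0.41 (95% interval 0.35 to 2.15, limma adjusted p = 0.418).

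In organoids 1 of 9 members differed by region of origin. Calb1 was 3.05 ± 0.24 higher in medulla than in cortex organoids, an 8.27-fold difference (limma adjusted p = 3.62e-05). Over all genes 7.94% were called higher and 10% lower in medulla organoids, so a single call among 9 is near the background. Both other tested Calb1 probe sets were also higher in medulla organoids, by 1.43 ± 0.43 and 3.14 ± 0.61 (limma adjusted p over probe sets = 0.0456 and 0.00618), where 6.4% of probe sets were called higher and 7.79% lower. Fibroblast markers were also higher there: 9 of 10 passed the test, with a median difference of 2.16. Their part in the Calb1 difference was not tested. Trpm6 was -0.79 (limma adjusted p = 0.0834), Atp2b1 -0.40 (limma adjusted p = 0.0671) and Wnk4 -0.43 (limma adjusted p = 0.242), and none of these passed. Another Atp2b1 probe set, 1428936_at, was called lower in medulla organoids, at -0.62 ± 0.17 (limma adjusted p over probe sets = 0.0338).

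The rise of Calb1 from progenitor cells to organoids was itself larger in medulla. It was 2.24 in cortex and 4.86 in medulla, and the difference between these was 2.62 ± 0.34 (limma adjusted p = 0.00292). Over all genes 1.63% were called higher and 2.48% lower for this difference. It rests on 1 probe set: the other 2 gave 1.14 ± 0.61 and 2.80 ± 0.86 with no call (limma adjusted p over probe sets = 0.367 and 0.114). Trpm6 had the opposite sign, at -1.54 ± 0.41, and did not pass (limma adjusted p = 0.0613). It passed without any 1 of the 4 medulla tissue or medulla organoid arrays, at limma adjusted p from 0.00912 to 0.0432.

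Other genes of these pathways were read the same way. Their lists were drawn up by function but with earlier results of these data known, so the counts are descriptions. Their counts are to be read against the same shares of all genes: 35.9% lower and 36.8% higher from tissue to progenitor cells, and 44.3% lower and 28.1% higher from there to organoids. Of 11 listed calcium genes 7 were tested. All 7 fell from tissue to progenitor cells, with a median of -5.02, and 4 rose again in organoids, with a median of 2.07. S100g, calbindin-D9k, had log2 signals of 14.49 and 14.85 in cortex tissue, 13.86 and 14.77 in medulla tissue, 5.39 and 5.03 in cortex progenitor cells, 5.50 and 5.04 in medulla progenitor cells, 13.48 and 13.22 in cortex organoids, and 13.67 and 13.08 in medulla organoids. It fell by 8.77 ± 0.20 and rose by 7.63 ± 0.20, and the highest organoid array, at 13.67, lay just below the lowest tissue array, at 13.86.

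Trpv6, the epithelial calcium channel closest to Trpv5, read 6.53 and 6.37 in cortex tissue, 5.52 and 6.71 in medulla tissue, 6.22 and 3.35 in cortex progenitor cells, 4.25 and 5.84 in medulla progenitor cells, 11.00 and 11.20 in cortex organoids, and 9.61 and 9.76 in medulla organoids. All 4 organoid arrays were above every other array, with a rise of 4.81 ± 0.38 from progenitor cells and a level 3.86 ± 0.38 above tissue (limma adjusted p = 3.21e-07 and 1.42e-06). The calcium pump Atp2b2 rose by 3.38 ± 0.25 from progenitor cells to organoids. It was lower in medulla than in cortex organoids (-1.32 ± 0.36, limma adjusted p = 0.0258), where neither of its 2 other tested probe sets was called. The vitamin D receptor Vdr fell by 5.02 ± 0.19 and rose by 2.07 ± 0.19. The parathyroid hormone receptor Pth1r and the vitamin D 24-hydroxylase Cyp24a1 fell by 8.54 ± 0.38 and 6.34 ± 0.33 to progenitor cells and their organoid minus tissue differences were -8.44 and -6.54. Several calcium genes thus rose in organoids beside Calb1, while the exchanger Slc8a1 did not pass the test there. Intercalated cell markers differed there too, with 3 of 4 called higher and 1 lower. Their summed signal was 80.1 to 114 on progenitor arrays, 6669 and 6777 in cortex organoids and 3604 and 3894 in medulla organoids. Their part in these rises was not tested.

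Of 11 magnesium genes 10 were tested: 8 fell, 1 rose and 1 did not pass from tissue to progenitor cells (median -1.21), and 2 rose and 6 fell from there to organoids (median -0.45). Over all genes 35.9% fell and 36.8% rose in the first comparison and 44.3% fell and 28.1% rose in the second, so the organoid counts lay near the background. Fxyd2, the gamma subunit of the sodium pump, fell by 9.43 ± 0.24 and rose by 6.04 ± 0.24. Cnnm2, a basolateral magnesium protein, rose by 1.71 ± 0.13 in organoids. Egf, whose product raises Trpm6 activity, fell by 8.91 ± 0.19, with an organoid minus tissue difference of -9.53. Its receptor Egfr fell by 3.05 ± 0.15 from progenitor cells to organoids. Trpm7 fell by 2.0 in organoids on its brightest probe set, but its 3 other tested probe sets were all called higher.

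Of 13 regulators of salt transport 11 were tested: 7 rose and 4 fell from tissue to progenitor cells (median 0.25), and 3 rose, 3 fell and 5 did not pass from there to organoids (median -0.20). The shares of all genes were 36.8% higher and 35.9% lower, and then 28.1% higher and 44.3% lower. The kinase Stk39, SPAK, rose by 1.84 ± 0.16 and Oxsr1 by 1.07 ± 0.10 to progenitor cells. The organoid minus progenitor difference of Stk39 was 0.69 ± 0.16 (limma adjusted p = 0.00187), but the arrays overlapped. Cortex organoids read 12.06 and 12.26 against 10.85 and 10.93 in cortex progenitor cells, and medulla organoids 10.91 and 11.21 against 10.92 and 10.97. Between organoids, Stk39 was lower in medulla (-1.10 ± 0.22, limma adjusted p = 0.00659), but neither of its 2 other tested probe sets was called. The phosphatase inhibitor Ppp1r1a fell by 6.77 ± 0.27, the cortisol-inactivating enzyme Hsd11b2 by 5.26 ± 0.22 and the mineralocorticoid receptor Nr3c2 by 2.43 ± 0.25. Of these, Hsd11b2 rose by 1.62 ± 0.22 in organoids. Stk39, Wnk1 and Wnk4, kinases that act on the cotransporter, read above the array medians in cells where its own signal was below them. The ubiquitin ligase Nedd4l fell by 1.13 ± 0.09 from progenitor cells to organoids, but 4 of its 5 other tested probe sets were called higher.

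**Figure D4:**
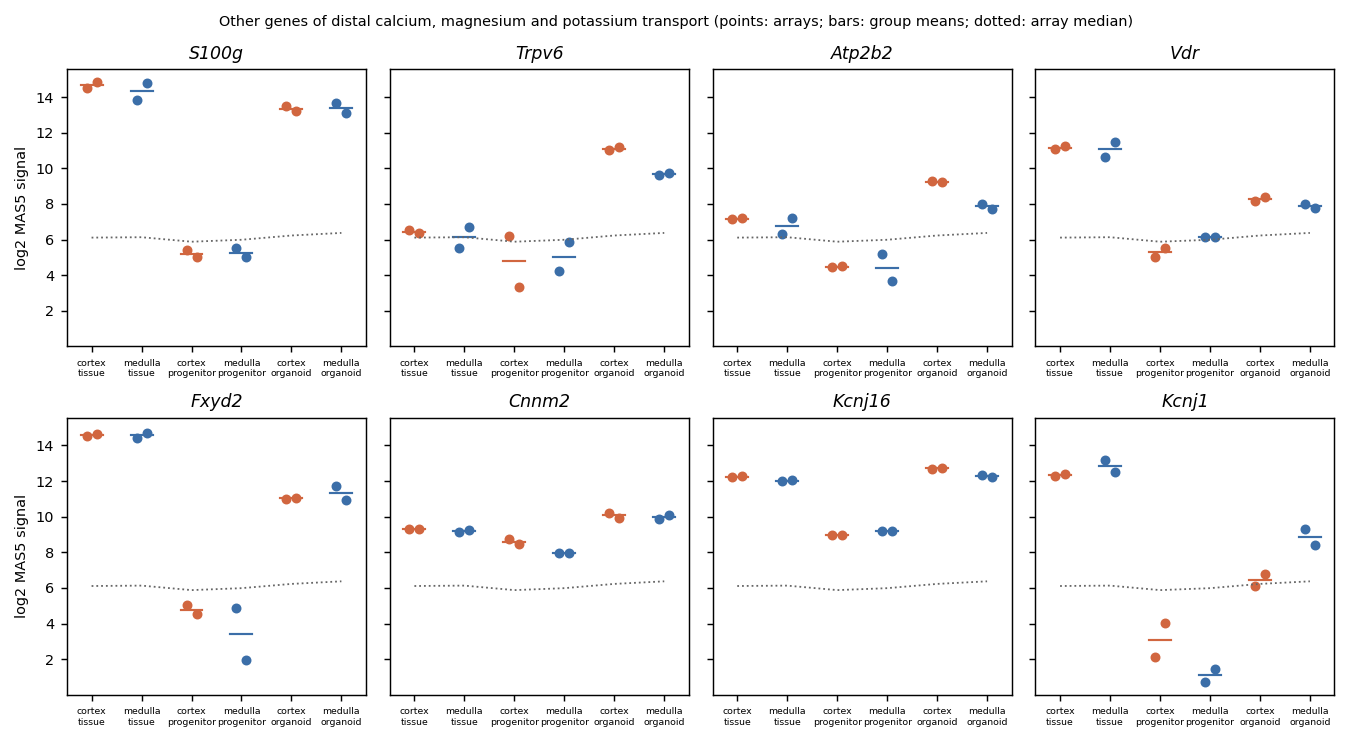
Deposited log2 signal (vertical axis) of S100g, Trpv6, Atp2b2, Vdr, Fxyd2, Cnnm2, Kcnj16 and Kcnj1 by group (horizontal axis), with 1 point an array, orange for cortex and blue for medulla, and the mean of the array medians in each group as a dotted line. All 8 rise from progenitor cells to organoids, and Trpv6, Atp2b2 and Cnnm2 lie above their tissue values there.

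Of 7 basolateral channel and sodium pump genes 4 were tested, and all 4 fell to progenitor cells (median -3.64), where 35.9% of all genes were called lower. The potassium channel subunit Kcnj16 fell by 3.0 ± 0.08 and rose by 3.37 ± 0.08 in organoids, whereas its partner Kcnj10 fell by 4.31 ± 0.27 to progenitor cells and lay below the array medians in both cultured stages. Of 6 genes around klotho 4 were tested: 3 fell and 1 did not pass to progenitor cells. On the brightest probe sets, the receptor Fgfr2 alone of the 4 rose to organoids, by 2.58 ± 0.13. For Fgfr1, which fell there on its brightest probe set, 1 of 2 other tested probe sets was called higher. Among 5 tested markers of the same segments beyond the members, all fell to progenitor cells (median -7.67) and 4 rose to organoids (median 3.42). Tissue kallikrein, Klk1, fell by 10.83 ± 0.30 and rose by 4.43 ± 0.30, and the potassium channel Kcnj1, also a gene of the thick ascending limb and collecting duct, fell by 8.23 ± 0.25 and rose by 3.42 ± 0.25. In organoids Kcnj1 was 2.24 ± 0.35 higher in medulla than in cortex, and Klk1 was lower there (-2.18 ± 0.43). The thick ascending limb sum was 5111 and 5232 in cortex organoids and 6666 and 5832 in medulla organoids. In progenitor cells it was 173 to 297. Of its 5 genes 4 were called higher and 1 lower from progenitor cells to organoids, against 28.1% and 44.3% of all genes. Slc12a1 read 4.41 to 5.34 in progenitor cells and 1.19 to 3.68 in organoids, all below the array medians. The part of these genes in the differences above was not tested.

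The genes nearest in pattern to 3 members were found by the root mean square difference of the 6 group means, each centred on the gene's own mean, over 13036 other genes. Nearest to Slc12a3 were Aldh8a1, Hsd3b2, Mep1a, F13b and Tmem174, at 0.186 to 0.245 log2 units. Nearest to Calb1 were Kcnj1, Dnase1, Aadat, Spink1 and Gsta2, at 0.665 to 0.864, farther off than those of Slc12a3. Nearest to Trpm6, whose means vary little, were 4930445K14Rik, Timm22, Umps, Chid1 and Sall2, at 0.223 to 0.237. These are descriptions over 6 means that share arrays, with no test.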

How the data were processed

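Affymetrix mouse arrays of total RNA, labelled with a 3′ in vitro transcription kit per the labels' protocols, were read from the deposited table of the authors' log2 signals. Per the submitters' processing notes the tool was MAS5 (version not given in the sources used here). Every deposited array had a trimmed mean signal of 500 (2% trimmed). Array number limits the precision. Detection calls were not used.

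Of 45101 probe sets, 64 were controls, 34945 named 1 gene, 932 several and 9211 none, by GEO's platform annotation, which can be old; 34741 matched a current gene by ID. Signals were raised by an offset of 15.2, the 25th percentile, and logged. The probe set with the highest mean stood for a gene, kept if 1 group had both arrays above their medians. limma 3.58.1 in R 4.3.3 was fitted with a variance trend (6 residual and 5.67 prior degrees of freedom), two-sided. The fits were checked on simulated data. Called genes named from each pathway list are among the up to 4 with the largest absolute difference in a comparison, others by their role. Members and lists were chosen with earlier results of these data known. Equal replicate numbers were not taken as pairs. Alternatives covered normalization, offset, filter, probe set choice, the fit and each array left out.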

Additional observations from a re-analysis of the deposited data

Results flagged for a closer look

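Calb1 rose more from progenitor cells to organoids in medulla than in cortex, by a test of the difference itself: 2.62 ± 0.34 on the log2 scale (limma adjusted p = 0.00292, 2 arrays in each of 4 groups). The effects within region were 2.24 in cortex and 4.86 in medulla. The call rests on the brightest probe set: the other 2 tested did not pass (limma adjusted p over probe sets = 0.367 and 0.114). With the mean of all probe sets the difference was 1.89 and did not pass (limma adjusted p = 0.0705). Both medulla organoid arrays lay above both cortex organoid arrays, and fibroblast markers were higher in the same medulla arrays.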

How the results depend on the processing

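Over 11 alternatives and 12 arrays left out in turn, 1630 of 1656 values of the 9 members kept their sign and their side of the threshold. Of the 26 exceptions 15 came from leaving out 1 array, 8 from the mean of all probe sets and 3 from quantile normalization, and the 7 reversals came from the mean of all probe sets (5) and quantile normalization (2). With the mean of all probe sets of a gene, Wnk1 turned to 0.75 from tissue to progenitor cells and 0.52 from tissue to organoids, Atp2b1 to 0.62 from progenitor cells to organoids and 0.99 from tissue to organoids, and Trpm6 to 0.82 from tissue to organoids. Calls then became 2 higher from tissue to progenitor cells, 4 higher and 1 lower from progenitor cells to organoids, 3 higher from tissue to organoids and 0 for the Calb1 region dependence (1.89, limma adjusted p = 0.0705). Quantile normalization made another Atp2b1 probe set the brightest, which gave 1.80 from progenitor cells to organoids and 2.18 from tissue to organoids, with 1 member higher from tissue to organoids and 1 lower in medulla organoids. Leaving out 1 array gave 1 to 2 members higher and 0 to 1 lower between organoid regions, and 1 to 3 higher and 0 to 2 lower for the region dependence of the organoid step, the 3 without medulla organoid replicate 1. Scaling to the 75th percentile moved the median of all genes from -0.29 to -0.51 for organoids minus tissue and from -0.29 to -0.40 for organoids minus progenitor cells, and no member's call.

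With the replicate block, member counts were as without it, with Calb1 at 2.62 for the region dependence. Over 15 pairs of groups same-numbered arrays deviated with correlations of -0.138 to 0.0569, none above 0.1. A crossed replicate block, added after seeing the data, called 51 genes between tissue regions and 47 between progenitor regions, against 44 and 41. With the compared groups alone, region calls over all genes were 1 in tissue, 145 in progenitor cells, 240 in organoids, and 71 and 266 for the region dependence of the 2 steps, against 44, 41, 2341, 37 and 535. Region calls in tissue were 24 with the mean of all probe sets, 28 with every probe set tested and 21 without a variance trend, which also gave 23 for the region dependence of the step to progenitor cells; progenitor region calls were 63 with an offset at the median signal. Leaving out 1 array moved these counts to 14 to 229 in tissue, 13 to 105 in progenitor cells, 1060 to 4316 in organoids, and 11 to 122 and 124 to 2509 for the region dependence of the 2 steps, with the highest counts without medulla tissue replicate 2 (229 and 122) or a medulla organoid array. Signals below the array median limit what can be said of Slc12a3, Kl, Slc8a1 and Pvalb among cultured groups.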
